A study of Mus musculus with 8 samples.

Results

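The genes described are 9 Wnt ligands of liver and mesenchyme, Wnt2, Wnt2b, Wnt4, Wnt5a, Wnt5b, Wnt6, Wnt9a, Wnt9b and Wnt11, measured in sorted hepatic stellate cells of control mice and of mice in which the transcription factor gene Lhx2 was targeted with Cre. They form a list of gene names, drawn up with earlier results of these data known. Each was represented by the probe set that carried its single gene symbol, and where a gene had more than 1 such probe set, by the one with the highest mean over all arrays. All 9 were measured, through 10 probe sets, among 19938 genes on the array.

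The study held 8 Affymetrix mouse gene arrays, 1 per sample of stellate cells, the vitamin A storing cells of the liver. The 4 control samples (replicates 1 to 4) came from mice with floxed Lhx2 and no Mx1Cre, and the 4 knockout samples (replicates 5 to 8) from floxed mice that carried Mx1Cre. Both groups had a C57BL/6J background and were given poly(I:C) 3 times, which switches on the interferon-driven Mx1Cre in many cell types and not in stellate cells alone, and the cells were collected 2 weeks later. They were enriched by density, sorted on retinoid autofluorescence and lysed directly, so no culture came between liver and RNA. The controls received poly(I:C) but lacked Cre, so an effect of the transgene and an effect of Lhx2 loss cannot be told apart. The sources used here give no ages or sexes of the mice. The labels do not say that each sample came from a separate animal, and p-values then measure only the spread between these samples, which may be technical.

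Wnt proteins are secreted, lipid-modified signals that act on neighbouring cells. They bind Frizzled receptors together with LRP5 or LRP6, which stabilises beta-catenin and turns on target genes through TCF and LEF factors, or together with ROR or PTK7 co-receptors, which steer cell polarity and movement without beta-catenin. In the liver, Wnt2 and Wnt9b are best known as products of the endothelium around the central veins that sustain the pericentral program of hepatocytes, while R-spondin 3 from stellate and endothelial cells amplifies the same signal.

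The deposited values are log2 expression levels after RMA normalization, so a difference of 1 is a doubling. Levels of different probe sets depend on their probes and are not set against each other below. They were instead read against olfactory receptor genes, sensory receptors of the nose that serve as a guide to unexpressed levels: the means of 1015 such genes had a median of 5.45, a 95th percentile of 6.88 and a 99th percentile of 7.81. Differences are knockout minus control from limma over all 19938 genes, with Benjamini-Hochberg adjusted p-values over all of them and a threshold of 0.05. The targeted gene Lhx2 was measured at 11.95 ± 0.08 (SD, n = 4) in control and 11.29 ± 0.17 (SD, n = 4) in knockout arrays. Lhx2 thus fell by 0.66 on the log2 scale (SE 0.09, limma adjusted p = 0.00136; exact permutation p = 0.0286 over 70 assignments, the smallest that 4 against 4 allows). The knockout arrays thus kept 63.3% of the control signal, above every olfactory receptor gene. Where the probes lie relative to the deleted part was not checked, so the values show a partial fall and not the extent of deletion. In these bulk samples fewer cells of a type and less RNA per cell cannot be told apart, for any gene below.

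Other cell types left signal in the arrays, unevenly. The mean log2 level of 14 sinusoidal endothelial markers ran from 8.60 to 11.15 in control and from 8.60 to 9.92 in knockout arrays. Controls 2 and 4 stood highest with 10.71 and 11.15. The mean of 10 hepatocyte markers ran from 9.0 to 11.13 in control and from 9.43 to 10.93 in knockout arrays. Of 11 measured stellate markers 5 were lower in the knockout, among them Gfap (-1.48), Nes (-1.31) and Hand2 (-0.48), and 0 higher, with a median difference of -0.23 (by the same test 3.63% of all 19938 genes were lower and 3.76% higher). The list mean ran from 12.59 to 12.71 in control and from 12.24 to 12.30 in knockout arrays. Lrat, the enzyme that makes retinyl esters, was at 13.65 in control and 13.75 in knockout arrays, and Des, the filament protein desmin, was at 12.42 and 12.50, and neither difference passed the test. Gfap, at 9.46 in control arrays, was at 7.98 in knockout arrays.

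Start-site sequence is shown for the pair of ligands on which most of the results turn, Wnt4, the ligand that changed, and Wnt2, the ligand whose controls were most scattered. Each run is the 250 bases before the RefSeq start (GRCm38.p6), read 5′ to 3′ on the strand of the gene, with every CG in capitals. The Wnt4 window lies at chr4:137277385-137277634 on the plus strand and the Wnt2 window at chr6:18030446-18030695 on the minus strand.
Wnt4: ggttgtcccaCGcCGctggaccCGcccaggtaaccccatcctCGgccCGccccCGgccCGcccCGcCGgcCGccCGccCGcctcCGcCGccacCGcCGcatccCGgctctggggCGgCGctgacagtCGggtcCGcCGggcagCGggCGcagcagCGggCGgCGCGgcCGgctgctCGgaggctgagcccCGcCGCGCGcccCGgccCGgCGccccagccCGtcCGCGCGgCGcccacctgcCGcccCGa
Wnt2: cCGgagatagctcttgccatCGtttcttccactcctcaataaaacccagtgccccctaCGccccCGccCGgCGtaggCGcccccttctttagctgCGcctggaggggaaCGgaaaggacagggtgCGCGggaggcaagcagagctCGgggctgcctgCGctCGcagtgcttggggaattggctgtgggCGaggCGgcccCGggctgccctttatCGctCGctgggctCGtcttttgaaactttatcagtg
The Wnt4 window held 44 CG dinucleotides and 85.2% G or C, more G or C than 99.9% of all 32851 windows of this length. The Wnt2 window held 20 CG and 63.6% G or C, against a median of 6 CG and 52.4% over all windows. Windows were matched for 8 of the 9 ligands (11 windows, since some genes have several starts), and Wnt5a had none. The letters TAATTA, a LIM homeodomain core that reads the same on both strands, were in 0 of the 11 windows and in 4.84% of all windows. The letters CTTTGA, a TCF and LEF core searched on both strands, were in 2 of the 11 windows (18.2%), 1 of Wnt5b and 1 of Wnt11, and in 13.8% of all windows. A match is only a description of these letters in these windows.

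The first question was which ligands lay above the level of olfactory receptor genes. In both groups the means of 9 of 9 ligands lay above the 95th percentile of 6.88, as did 66.9% of all 19938 genes in control and 66.3% in knockout arrays. The 99th percentile of 7.81 divided them. Wnt4, Wnt5a and Wnt9a lay above it in both groups, the Wnt2 mean lay above it in control and below it in knockout arrays, and Wnt2b, Wnt5b, Wnt6, Wnt9b and Wnt11 lay below it in both. Of all genes, 51.8% passed that level in control and 51.7% in knockout arrays.

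Wnt4 stood clear of the guide, with 0 olfactory receptor genes above its mean. The mean of Wnt5a was passed by 3 of the 1015 receptor genes and that of Wnt9a by 6. The means of Wnt2 and Wnt5b were each passed by 12 receptor genes and that of Wnt9b by 17. Wnt11, Wnt6 and Wnt2b lay nearest to the guide, with 30, 33 and 33 receptor genes above them. Read within each array, 8 of the 9 ligands were above that array's own 95th percentile in all 8 arrays. Wnt2b was the exception, above it in 7 of 8 and just under it in knockout 5. No detection calls were used here, so a position above the guide does not show that a ligand is expressed.

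**Figure D1:**
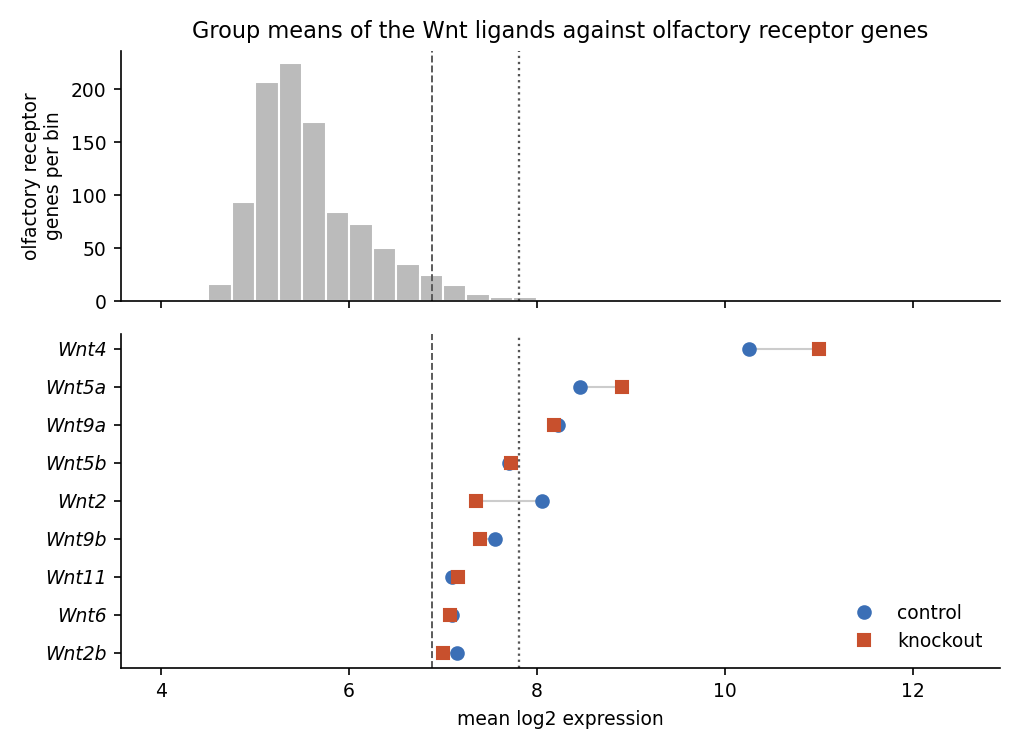
The upper panel counts olfactory receptor genes by mean log2 expression over all arrays in bins, and the lower panel gives the control (circle) and knockout (square) mean log2 expression of each Wnt ligand. The dashed line is the 95th percentile of the receptor genes (6.88) and the dotted line the 99th (7.81); all 9 ligands lie right of the dashed line, and Wnt4, Wnt5a and Wnt9a lie right of the dotted line in both groups.

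The main comparison asked which ligands differ between the knockout and control arrays. Wnt4 rose, and it was the only one of the 9 to pass the test; 0 fell and 8 did not pass. The background was 749 of 19938 genes higher (3.76%) and 723 lower (3.63%) by the same test. The groups of Wnt4 did not overlap, with every knockout array above every control, as for 6.38% of all genes, and 0 ligands had every knockout array below every control, against 6.32% of all genes. The median difference of the 9 ligands was -0.03, with 4 above 0 and 5 below, and that of all genes was -0.02. At an unadjusted limma p under 0.05, 3 ligands would have counted, Wnt4, Wnt2 and Wnt5a.

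**Figure D2:**
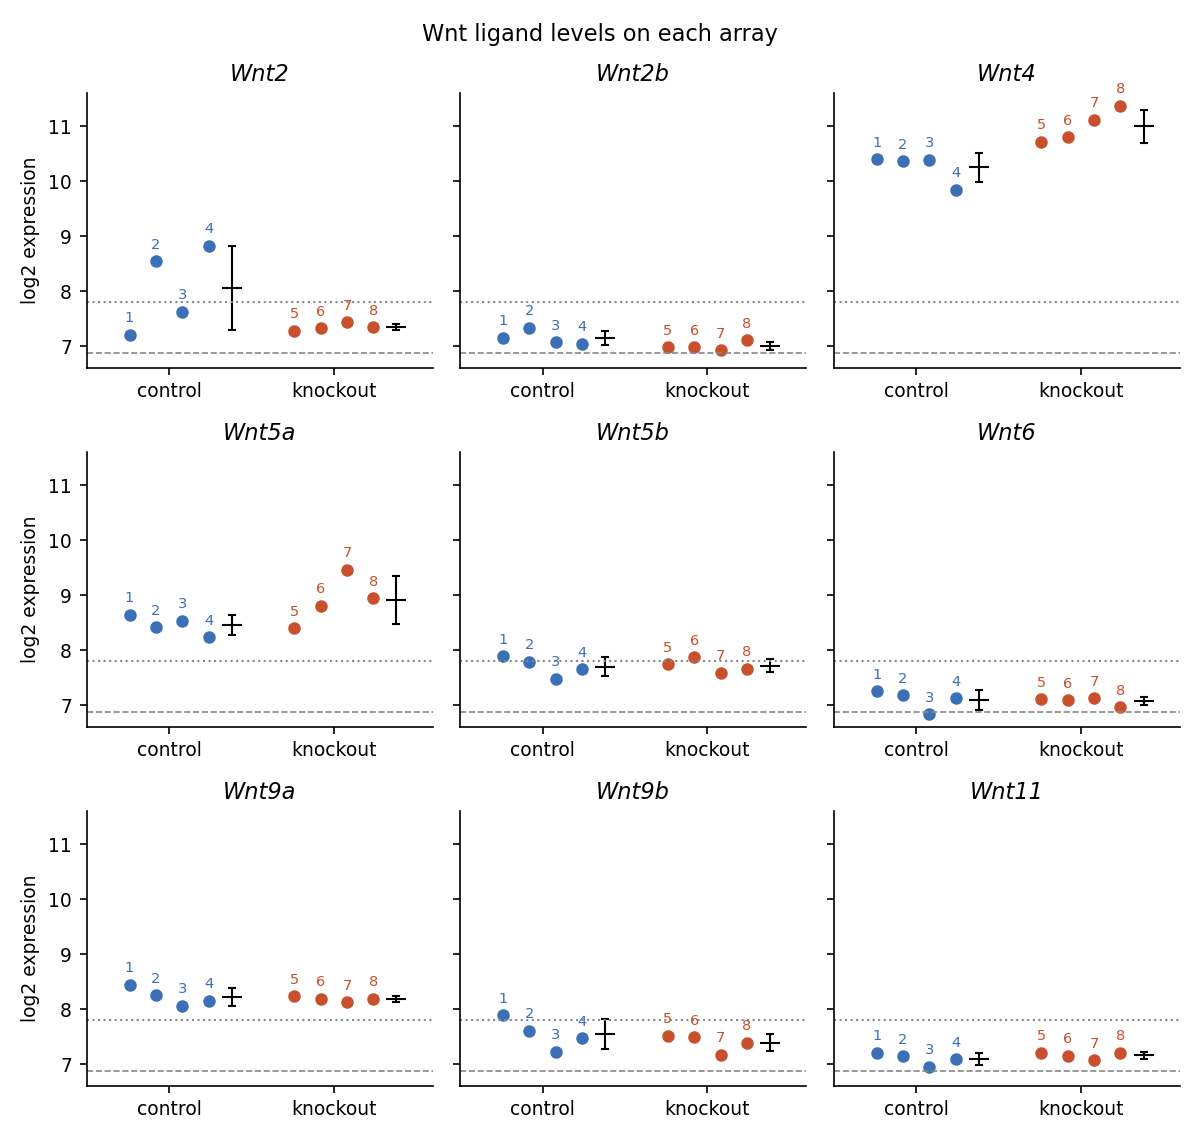
Log2 expression (vertical axis) of each Wnt ligand on every array, control in blue and knockout in red, numbered by replicate, with the group mean and SD in black. Dashed and dotted lines are the 95th and 99th percentiles of olfactory receptor genes (6.88 and 7.81); only Wnt4 separates the groups fully, and the Wnt2 controls spread over 1.62.

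Wnt4 acts in kidney tubule formation and in the female reproductive tract, and can signal with or without beta-catenin depending on the cell. Its log2 levels were 10.40, 10.37, 10.40 and 9.85 in controls 1 to 4 and 10.72, 10.81, 11.12 and 11.37 in knockouts 5 to 8. The lowest knockout array thus exceeded the highest control, and control 4 lay apart below the other controls. The means were 10.26 ± 0.27 (SD, n = 4) and 11.01 ± 0.30 (SD, n = 4). The difference was 0.75 (SE 0.17, 95% interval 0.37 to 1.13, limma adjusted p = 0.0252), a 1.68-fold higher level in the knockout (1.30 to 2.19).

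A second probe set named Wnt4 on the array allowed the rise to be read with other probes. On it the levels were 10.06, 9.74, 10.11 and 9.45 in controls 1 to 4 and 10.15, 10.20, 10.48 and 10.47 in knockouts 5 to 8. Again every knockout array lay above every control, and control 4 was again the lowest. The difference there was 0.48, or 1.40-fold, and in a fit of every probe set it did not pass (limma adjusted p = 0.0912), where the brighter probe set did (0.0238). With the probe sets averaged the difference was 0.62 (limma adjusted p = 0.0399). Both read the same RNA, so they are not separate evidence on the mice.

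The Wnt4 call rested on few arrays. With each array left out in turn the difference stayed between 0.62 and 0.85, and the call was lost in 3 of 8 cases, without control 2 (limma adjusted p = 0.0525), without knockout 7 (0.0683) and without knockout 8 (0.0565). Without control 4, the low array, the difference was 0.62 and the call held (limma adjusted p = 0.0464). Without controls 1 and 4 it was 0.62 (limma adjusted p = 0.131), and without controls 2 and 4, the arrays with the most endothelial signal, it was 0.61 (0.137). The direction held in every one of these fits.

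**Figure D3:**
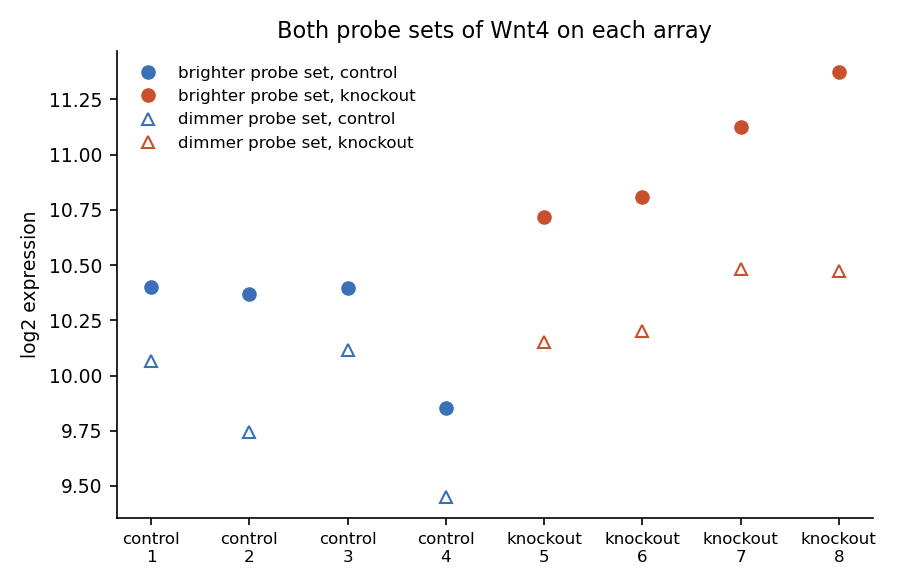
Log2 expression (vertical axis) of both Wnt4 probe sets on each of the 8 arrays (horizontal axis), filled circles for the brighter and open triangles for the dimmer probe set, control in blue and knockout in red. On either probe set the knockout arrays all lie above the controls, by means of 0.75 and 0.48.

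Over the 8 arrays the genes whose log2 levels followed Wnt4 most closely by Pearson correlation were Ptprj (r = 0.98), a receptor tyrosine phosphatase, Zfp827 (r = 0.98), a zinc finger protein, and Lrrc32 (r = 0.97), a membrane protein that holds latent TGF-beta. These correlations mix the group difference with the spread inside groups and are given as a description of 8 arrays. Zfp827 itself rose by 0.58 (SE 0.12, limma adjusted p = 0.0182). Ptprj differed by 0.29 (limma adjusted p = 0.0707) and Lrrc32 by 0.32 (0.0666), and neither passed.

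Wnt2 is one of the endothelial Wnt ligands of the adult liver. Its log2 levels were 7.21, 8.55, 7.63 and 8.83 in controls 1 to 4 and 7.28, 7.33, 7.43 and 7.35 in knockouts 5 to 8. Controls 2 and 4 were high, control 1 was the lowest of all 8 arrays, and the groups overlapped. The controls spanned 1.62 and the knockouts 0.15, and the level passed the 99th percentile of olfactory receptor genes in 2 control arrays and 0 knockout arrays. The means were 8.05 ± 0.76 (SD, n = 4) and 7.35 ± 0.06 (SD, n = 4), a difference of -0.71 (SE 0.31, 95% interval -1.40 to -0.01) that did not pass (limma adjusted p = 0.28).

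The control arrays high in Wnt2 were those high in endothelial markers. Over the 8 arrays Wnt2 and the mean of the 14 sinusoidal endothelial markers had a Pearson r of 0.90 and a Spearman rho of 0.86, and 0.587% of all genes had an r at least as high. Without controls 4 and 2, the arrays farthest out, r was 0.55, so the relation rests largely on them, and the points share their arrays and normalization. Within groups, after each group's mean was taken off, r was 0.91 over both groups pooled, and it was not recomputed without controls 2 and 4. Among the knockout arrays the mean of these markers ran from 8.60 to 9.92, while Wnt2 stayed between 7.28 and 7.43. Of these markers 1 of 14 fell, Clec4g (-1.23, SE 0.25, limma adjusted p = 0.0177), and 0 rose. By the same test 3.63% of all genes were lower and 3.76% higher. At an unadjusted limma p under 0.05, 3 of the 14 markers were lower and 0 higher. The median difference of the 14 was -0.70. Stab2, a scavenger receptor of sinusoidal endothelium, was at 9.84 ± 1.62 (SD, n = 4) in control and 9.48 ± 0.73 (SD, n = 4) in knockout arrays (limma adjusted p = 0.896), and the endothelial junction genes Pecam1 (0.766) and Cdh5 (0.904) did not pass either.

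The Wnt2 difference moved with the arrays included. Without controls 2 and 4 it was -0.07 (limma adjusted p = 0.933), and without control 4 alone -0.45 (0.52). Without control 1, the lowest control, it was -0.99 and passed (limma adjusted p = 0.0498), and with arrays weighted by their quality it was -1.02 and passed (0.0388). The part of endothelial RNA in this difference was not tested. The 3 genes most like Wnt2 in pattern over the 8 arrays, looked up after its values were seen, were Hid1 (r = 0.99), Kit (r = 0.98) and Mir19b-2 (r = 0.96). Kit, on the list of larger vein markers, was at 7.93 in control and 7.14 in knockout arrays (limma adjusted p = 0.398).

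**Figure D4:**
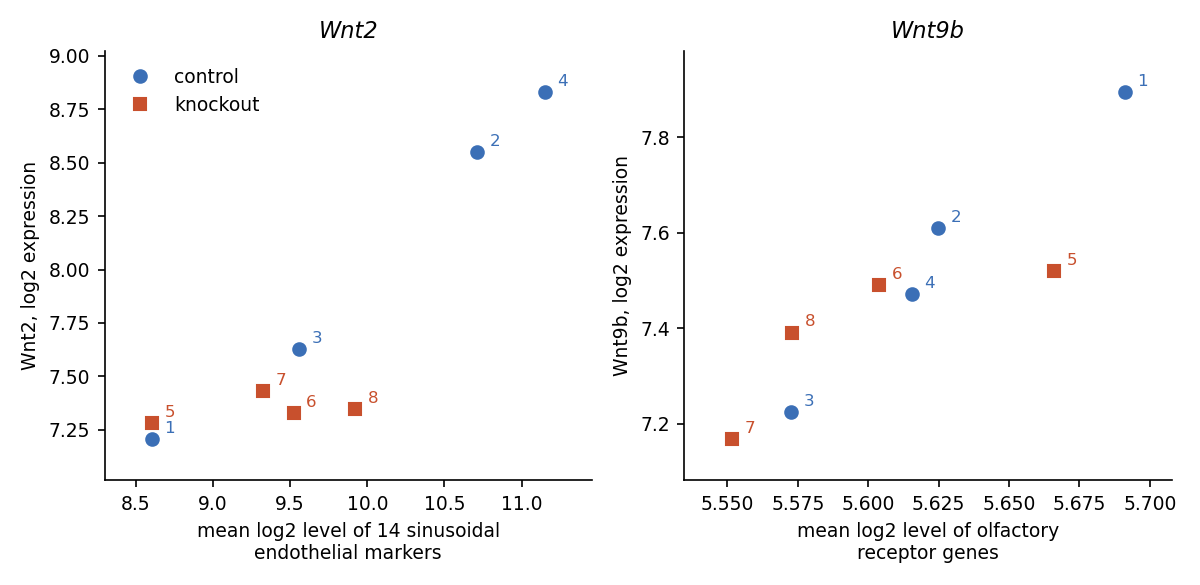
Each point is an array, control in blue circles and knockout in red squares, numbered by replicate. Left, Wnt2 log2 expression against the mean log2 level of 14 sinusoidal endothelial markers (r = 0.90), with controls 2 and 4 apart at the upper right; right, Wnt9b log2 expression against the mean log2 level of the olfactory receptor genes (r = 0.90).

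Wnt5a is the best studied ligand of the pathway without beta-catenin and is made by mesenchymal cells, where it acts through ROR receptors in tissue outgrowth. Its log2 levels were 8.65, 8.42, 8.53 and 8.24 in controls 1 to 4 and 8.40, 8.81, 9.46 and 8.95 in knockouts 5 to 8. Knockouts 6, 7 and 8 lay above every control, and knockout 5 lay among the controls. The means were 8.46 ± 0.18 (SD, n = 4) and 8.91 ± 0.44 (SD, n = 4). The difference of 0.45 (SE 0.19, 95% interval 0.01 to 0.88), or 1.36-fold, did not pass (limma adjusted p = 0.272). It ranged from 0.26 without knockout 7 to 0.62 without knockout 5 (limma adjusted p = 0.0694), and passed under none of the 18 alternatives run for it.

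Wnt9a, a ligand of joint formation, was the steadiest of the ligands above the 99th percentile. Its levels were 8.44, 8.25, 8.07 and 8.15 in controls 1 to 4 and 8.24, 8.19, 8.12 and 8.19 in knockouts 5 to 8. The knockout arrays lay wholly inside the range of the controls, with means of 8.23 ± 0.16 (SD, n = 4) and 8.18 ± 0.05 (SD, n = 4) and a difference of -0.04 (SE 0.08, limma adjusted p = 0.888).

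The 5 ligands between the percentiles, Wnt2b, Wnt5b, Wnt6, Wnt9b and Wnt11, had group means from 7.0 to 7.72 and differences from -0.16 to 0.06. None of them passed (limma adjusted p from 0.352 to 0.962), and every 95% interval lay within -0.46 to 0.23, so that larger shifts of these probe set values lie outside what the intervals allow. RMA compresses differences of dim probe sets, so these bounds are on the scale of the deposited values.

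Wnt9b, the other ligand of central vein endothelium, was at 7.89, 7.61, 7.22 and 7.47 in controls 1 to 4 and at 7.52, 7.49, 7.17 and 7.39 in knockouts 5 to 8. The groups overlapped, with a difference of -0.16 (SE 0.14, limma adjusted p = 0.693). Unlike Wnt2 it was not highest in controls 2 and 4: control 2 came next after control 1, and control 4 lay below knockouts 5 and 6. The highest array was control 1, where the sinusoidal endothelial markers were lowest among the controls, and the lowest was knockout 7. Wnt9b instead moved with the mean of the olfactory receptor genes of each array, which ran from 5.55 to 5.69, with a Pearson r of 0.90 and a Spearman rho of 0.95 over the 8 arrays. Without control 1 and knockout 7 its r was 0.73, and 3.24% of the 18923 genes that are not olfactory receptors had an r at least as high. For Wnt9a the same r was 0.85, or 0.68 without those arrays, with 7.78% of genes as high, and for Wnt5b, Wnt6 and Wnt11 it was 0.71, 0.64 and 0.58. For Wnt2b, the ligand nearest the guide, it was 0.31, or -0.07 without those arrays. For Wnt4 it was -0.44, for Wnt5a -0.57 and for Wnt2 -0.05.

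Wnt2b, close kin of Wnt2 and known with it for specifying the lung, was at 7.15, 7.34, 7.07 and 7.04 in controls 1 to 4 and at 6.98, 6.98, 6.93 and 7.10 in knockouts 5 to 8. Knockouts 5, 6 and 7 lay below every control and knockout 8 inside their range, a difference of -0.15 (SE 0.07, limma adjusted p = 0.352) at the edge of the olfactory receptor level. Wnt5b, which resembles Wnt5a in sequence and signalling, was at 7.89, 7.79, 7.48 and 7.65 in controls 1 to 4 and at 7.75, 7.87, 7.59 and 7.66 in knockouts 5 to 8. The groups of Wnt5b lay on top of each other, with a difference of 0.02 (SE 0.10, limma adjusted p = 0.962).

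Wnt6, a ligand of embryonic epithelia, was at 7.25, 7.18, 6.83 and 7.13 in controls 1 to 4 and at 7.11, 7.09, 7.13 and 6.96 in knockouts 5 to 8. Its knockout arrays lay inside the control range, with a difference of -0.03 (SE 0.09, limma adjusted p = 0.945). Wnt11, which directs cell movement in the early embryo and branching of the kidney duct, was at 7.21, 7.14, 6.95 and 7.09 in controls 1 to 4 and at 7.21, 7.15, 7.07 and 7.21 in knockouts 5 to 8. Knockouts 5 and 8 lay just above every control of Wnt11, and the difference was 0.06 (SE 0.07, limma adjusted p = 0.766).

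**Figure D5:**
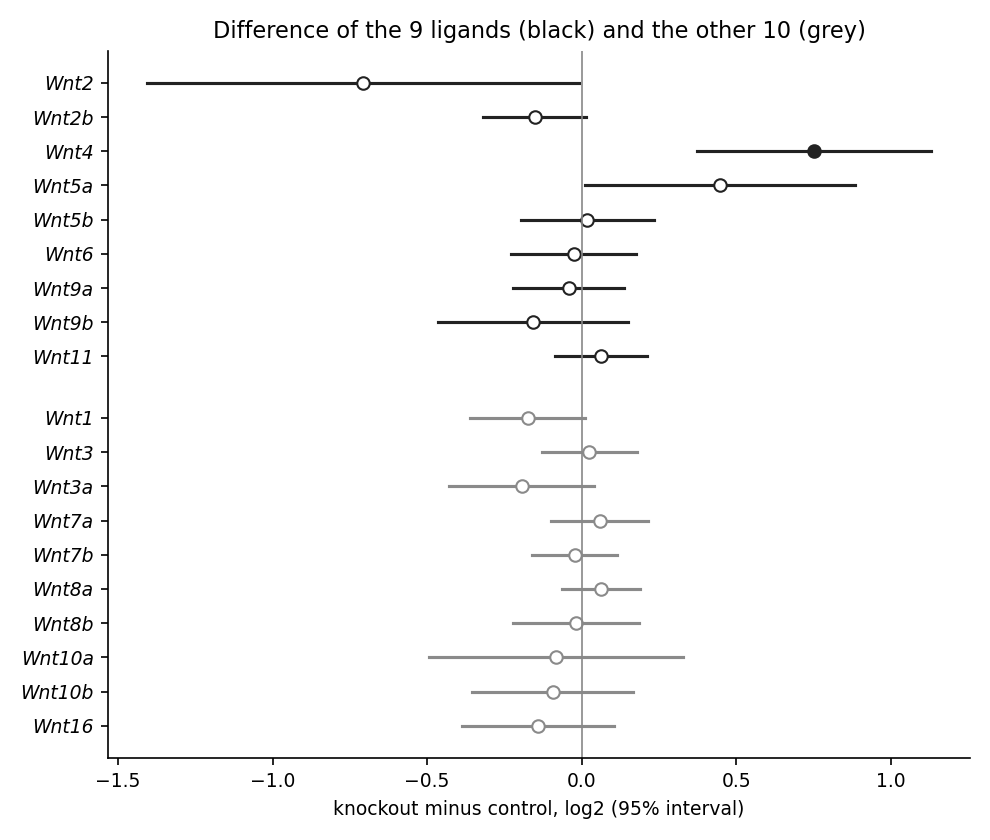
Knockout minus control difference in log2 expression (horizontal axis) with its 95% interval for the 9 Wnt ligands (black) and the 10 other mouse Wnt ligands (grey), filled where the limma adjusted p was under 0.05. Wnt4 at 0.75 is the only filled point, and the intervals of Wnt2 and Wnt5a are the widest of the rest of the 9.

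The 10 other Wnt ligands of the mouse were measured too, and 0 passed, by limma, in either direction (0 also at an unadjusted p under 0.05), with differences from -0.19 to 0.06 and adjusted p from 0.329 to 0.96. In each group 4 of the 10 lay above the 95th percentile of olfactory receptor genes, Wnt3a, Wnt7b, Wnt10a and Wnt10b, and 1 above the 99th, Wnt10a. By name, 9 of 9 of the ligands of liver and mesenchyme and 4 of 10 of the others were above the first level. Of all genes 66.9% were above it in control and 66.3% in knockout arrays. The lists were drawn up with earlier results of these data known, so the contrast is only a description.

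For the rest of the pathway, 98 of 99 listed genes were measured, and 11 were higher (11.2%) and 5 lower (5.10%) in the knockout, against 3.76% and 3.63% of all genes, with a median difference of -0.01. The pathway lists were chosen with earlier results of these data known, so the shares are only a description. With each array left out in turn, 10 of these 16 calls held every time, and the 6 of Fzd1, Fzd8, Dvl2, Tcf7l2, Nkd2 and Dact1 were lost without at least 1 array.

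Of 10 genes listed under Wnt secretion and release, 0 were higher and 0 lower by limma (2 lower at an unadjusted p under 0.05). Most of the list serves the release of Wnt proteins, but Notum and Trabd2b, which are also on it, do not. Porcn, the enzyme that adds the lipid to every Wnt protein, was at 9.80 ± 0.20 (SD, n = 4) in control and 9.70 ± 0.21 (SD, n = 4) in knockout arrays (-0.10, SE 0.13, limma adjusted p = 0.803). Wls, the carrier that takes Wnt proteins to the cell surface, was at 11.75 ± 0.05 (SD, n = 4) and 11.65 ± 0.04 (SD, n = 4), a difference of -0.11 (SE 0.05, limma adjusted p = 0.319).

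Of 9 R-spondins and their receptors 1 fell. Rspo3, the R-spondin that amplifies Wnt signals on hepatocytes, was at 12.41 ± 0.03 (SD, n = 4) in control and 11.34 ± 0.06 (SD, n = 4) in knockout arrays, so that its level in the knockout was 47.5% of control (-1.07, SE 0.05, limma adjusted p = 2.44e-06). The groups of Rspo3 did not overlap, and its call held with any 1 array left out.

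Of 16 receptors and co-receptors 5 were higher and 1 lower. Fzd2, a Frizzled receptor able to bind Wnt5a, rose from 7.62 ± 0.21 to 8.49 ± 0.15 (SD, n = 4 each), by 0.87 (SE 0.11, limma adjusted p = 0.00122). Ror1, a co-receptor of Wnt5a, rose from 9.81 ± 0.09 to 10.64 ± 0.15 (SD, n = 4 each), by 0.83 (SE 0.08, limma adjusted p = 0.000216). Fzd4 rose by 0.72 (SE 0.11, limma adjusted p = 0.00421) and Ptk7, a polarity co-receptor, by 0.63 (SE 0.07, limma adjusted p = 0.000522). In each of these 4 genes every knockout array lay above every control. The remaining calls, named here after their values were seen, were Fzd8 at 0.39 (limma adjusted p = 0.0478) and Fzd1 at -0.31 (0.0392).

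Of 14 genes listed as Wnt antagonists 2 were higher and 0 lower. Most encode secreted proteins that bind Wnt proteins or their co-receptors, while Kremen1 and Kremen2 encode membrane receptors for Dickkopf proteins. Sfrp1, a decoy that captures Wnt proteins, was at 6.85 ± 0.15 (SD, n = 4) in control arrays, below the 95th percentile of olfactory receptor genes, and rose to 10.56 ± 0.31 (SD, n = 4) in knockout arrays (limma adjusted p = 1.19e-06). The limma difference was 3.71 (SE 0.15, 95% interval 3.38 to 4.04). Set against that percentile in place of the control mean, the knockout mean was 12.8-fold higher. No sampling error was computed for this value, and the percentile comes from other probe sets, so it is only a guide. Dkk3, a divergent member of the Dickkopf family, rose by 1.39 (SE 0.11, limma adjusted p = 5.17e-05).

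Of 17 measured genes of the beta-catenin machinery 1 was higher, Dvl2, a scaffold below the Frizzled receptors (0.22, limma adjusted p = 0.0263), and 1 lower, Tcf7l2, a transcription factor partner of beta-catenin (-0.44, 0.0295). Ctnnb1, beta-catenin itself, differed by -0.04 (limma adjusted p = 0.853). Of 14 measured target and feedback genes 0 were higher and 2 lower, Ccn4 (-0.81, SE 0.15, limma adjusted p = 0.00928), a matricellular protein, and Nkd2 (-0.39, 0.0225), an inhibitor of Dishevelled. Axin2, the most widely used readout of beta-catenin signalling, named after its value was seen, was at 9.03 ± 0.03 in control and 9.22 ± 0.15 in knockout arrays (SD, n = 4 each), a difference of 0.19 that did not pass (SE 0.07, limma adjusted p = 0.20). Of 13 planar polarity genes 3 were higher and 0 lower, the formin regulators Daam1 (0.43, limma adjusted p = 0.00932) and Daam2 (0.40, 0.000835) and the Dishevelled partner Dact1 (0.36, 0.0332).

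Markers of other cells are given for the same comparison, against 3.76% of all genes higher and 3.63% lower. Of 8 portal fibroblast markers 4 were higher, among them Dpt (2.28) and Eln (0.81), 0 were lower and 4 did not pass. Of 8 markers of larger liver veins 5 did not pass. Cd34, which is on the portal fibroblast list as well, was higher (3.08) and Clu (-1.55) and Thbd (-0.82) were lower. The mean of this list ran from 8.31 to 9.42 in control and from 8.55 to 8.97 in knockout arrays. Over the 4 controls the SD was 0.05 for Clu and 0.16 for Thbd, against 0.52 for Cd34 and 1.01 for Kit of the same list. Which cells gave the signal of Clu and Thbd was not tested. Of 10 hepatocyte markers 0 passed by limma in either direction (1 at an unadjusted p under 0.05), and likewise 0 of 6 leukocyte and 0 of 5 cholangiocyte markers (0 and 0 at an unadjusted p under 0.05), with Alb at 13.00 and 13.04 and Ptprc at 6.84 and 7.12 (limma adjusted p = 0.508) in control and knockout arrays. Among 9 Kupffer cell markers 1 was lower, Cd68 (-0.61), among 6 smooth muscle markers Tagln was higher (0.77) and Smtn lower (-0.36), and among 6 mesothelial markers Wt1 was lower (-0.24). Which cells in the sorted samples made Wnt4, Wnt5a or the other ligands was not tested.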

How the data were processed

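Knockout and control stellate cells (4 arrays each) were compared on deposited log2 expression values, which the submitters' processing notes credit to RMA. The sources used here give neither its version nor scan dates or batches. A platform annotation named 21789 of 35556 probe sets by 1 gene symbol; the probe set with the highest mean stood for each of 19938 genes. The fit used lmFit and eBayes of limma 3.58.1 (R 4.3.3), two-sided, with no covariate and no filter. Tested on simulated data with 19938 genes, it recovered 78% of 50 genes changed by 0.5 (log2) and 94% of 50 changed by 1. False calls in that test numbered 14, or 7.04% of its calls. Correlations ran over 8 arrays (Python 3.11.15, scipy 1.17.1). The members and lists were chosen with earlier results of these data known. Named were the 9 ligands, Lhx2, Rspo3, Porcn, Wls, other Wnt ligands called or above the guide, up to 4 called members of each pathway list and up to 3 of each marker list by size, set markers, and 3 genes most like each called ligand, apart from genes named outside this rule as stated. Alternatives covered probe set choice, scaling, filters, thresholds, array weights and left-out arrays. Promoter windows and names came from RefSeq tables (GRCm38.p6).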

Additional observations from a re-analysis of the deposited data

Results flagged for a closer look

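In each group of 4 arrays the highest and lowest array were set against their nearest neighbour by Dixon's criterion at its 95% critical value. Of 148 groups tested 5 stood out, and chance alone gives about 1 in 20.

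Among the 9 ligands 1 array stood out, control 4 for Wnt4, at 9.85 with its nearest neighbour at 10.37; its second probe set was also lowest there. Among the other Wnt ligands, knockout 7 stood low for Wnt3a, at 7.26 against 7.63. Control 4 was also low for Cd68, a macrophage marker, at 10.07 against 10.49. Control 2 was low for the stellate marker Gfap, at 9.32 against 9.49. Knockout 5 was low for the mean of the larger vein endothelial markers, at 8.55 against 8.93.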

How the results depend on the processing

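The 1 ligand call, Wnt4, became 0 calls without controls 1 and 4 together, without controls 2 and 4 together (an alternative chosen after seeing the data) and at an adjusted p under 0.01, and ranged from 0 to 1 with single arrays left out. The count of lower ligands, 0, became 1 (Wnt2) with array weights and ranged from 0 to 1 with single arrays left out. Above the 99th instead of the 95th percentile of olfactory receptor genes lay 4 ligands in control and 3 in knockout arrays. Of the pathway lists 6 genes were higher and 1 lower without controls 1 and 4 together, and 2 lower without controls 2 and 4 together; with single arrays left out 8 to 12 were higher and 2 to 5 lower. The fits with fewer arrays have fewer samples; otherwise the cause was not tested. No value reversed a call. Lhx2 stayed lower in all 18 alternatives (-0.73 to -0.59, limma adjusted p from 0.00012 to 0.0252), and the difference of Wnt4 stayed above 0 in all 19 (0.48 to 0.85). Median centring and quantile scaling moved the knockout minus control differences of all genes by a median of 0.0025 and 0.0017. No paired analysis was possible because the groups share no replicate numbers. With 4 arrays a group, small changes of dim ligands lie below what the arrays resolve.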

Other observations

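The genes most like each ligand that did not pass were looked up after the values were seen, by Pearson correlation of log2 levels over the 8 arrays, and are given as descriptions. Wnt9b was closest to Cby3 (r = 0.99), Pax1 (r = 0.99) and Trpc4 (r = 0.99), with differences of -0.13, -0.10 and -0.15 that did not pass (limma adjusted p from 0.637 to 0.717). Pax1 is a transcription factor of embryonic somites and Trpc4 a cation channel. Wnt5a was closest to Nrg4 (r = 0.97), a growth factor related to neuregulins, Slc7a2 (r = 0.97), a carrier of cationic amino acids, and Tcf3 (r = 0.97), an E-protein. Slc7a2 differed by 0.46 (SE 0.16, limma adjusted p = 0.144).

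The olfactory receptor genes themselves moved little between the groups: 0 of 1015 passed in either direction by limma (14, all lower, at an unadjusted p under 0.05), and the middle 95% of their differences ran from -0.14 to 0.07. Those of Wnt9b (-0.16) and Wnt2b (-0.15) lay just outside that range, which was taken over all 8 arrays. With single arrays left out, Wnt9b ran from -0.27 without control 3 to -0.04 without control 1. Wnt2b ran from -0.19 without control 4 to -0.09 without control 2. Both thus lay inside or outside the range depending on the array left out. The differences of Wnt5b, Wnt6, Wnt9a and Wnt11 over all arrays lay inside it.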
